A study of Mus musculus with 27 samples.

Results

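The comparison described here sets livers of mice given TCDD (2,3,7,8-tetrachlorodibenzo-p-dioxin) at 0.1 µg/kg against livers of mice given sesame oil vehicle, 3 livers each, as the dose and treatment labels assign them. These are 6 of the 27 liver libraries of the series, in which 8 TCDD doses from 0.01 to 30 µg/kg and the vehicle were each given to 3 mice. All mice, the controls included, were ovariectomized C57BL/6 females with an age label of 120 days, dosed by oral gavage every 4 days for 92 days, and the labels name no other genetic change or agent. Another phrase of the labels calls the gavage daily. Ovariectomy removes the ovarian source of estrogen in vehicle and treated mice alike. The labels give no animal identifiers, pooling or hour of collection, so the library is the unit of the tests. The p-values set each difference against the spread between libraries of the same group, estimated over all 27.

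Total liver RNA was sequenced, and each library was deposited as a list of whole read counts by gene. The 6 libraries held 17150026 to 30472112 counts. The other libraries, which entered the same statistical fit, held 11050391 to 30873586 counts except the second at 0.3 µg/kg, with 434011. Levels are given as CPM (counts scaled to library size, with TMM factors), in the order of the replicate labels. They depend on gene length, so they are compared between livers and not between genes. The labelled tissue carried its defining marker: albumin (Alb), the main secreted protein of hepatocytes, was at 95944 to 192576 CPM in vehicle and 86715 to 137601 CPM at 0.1 µg/kg.

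TCDD is a ligand of the aryl hydrocarbon receptor (AhR), a transcription factor held in the cytosol by HSP90 until a ligand binds. The receptor then enters the nucleus, pairs with ARNT and binds DNA at elements built on the letters GCGTG, from which it induces drug-oxidizing enzymes such as CYP1A1 and its own repressor AHRR. The liver also holds a circadian clock. In it, BMAL1 (gene Arntl) pairs with CLOCK or NPAS2 and activates the Period, Cryptochrome, REV-ERB (Nr1d1, Nr1d2) and PAR bZIP (Dbp, Tef, Hlf) genes through E-boxes. PER and CRY proteins repress that activation, REV-ERB proteins repress Arntl, Npas2, Cry1 and Nfil3, and the PAR bZIP proteins act at D-boxes, where NFIL3 opposes them.

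The upstream stretches of 4 genes are shown because the results turn on these genes and each carries at least 1 of the motifs searched. Cyp1a1 (chr9:57697363-57697612, plus strand) rose most. Per3 (chr4:151044666-151044915, minus strand), Nr1d1 (chr11:98775378-98775627, minus strand) and Tef (chr15:81811164-81811413, plus strand) are clock genes. Each run is the 250 bases before a RefSeq start on GRCm38.p6, written 5′ to 3′ on the strand of the gene. None overlaps an exon of its gene in the GENCODE M21 annotation of GRCm38. Capitals mark GCGTG (the AhR core, CACGC on the other strand), CACGTG (an E-box) and TTATGNAA (a D-box), and GCGTG is not contained in the other motifs.
Cyp1a1: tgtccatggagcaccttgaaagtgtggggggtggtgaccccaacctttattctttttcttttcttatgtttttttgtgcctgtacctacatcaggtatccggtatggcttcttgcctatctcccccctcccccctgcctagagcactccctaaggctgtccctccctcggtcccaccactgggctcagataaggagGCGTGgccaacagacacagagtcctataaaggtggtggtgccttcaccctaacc
Per3: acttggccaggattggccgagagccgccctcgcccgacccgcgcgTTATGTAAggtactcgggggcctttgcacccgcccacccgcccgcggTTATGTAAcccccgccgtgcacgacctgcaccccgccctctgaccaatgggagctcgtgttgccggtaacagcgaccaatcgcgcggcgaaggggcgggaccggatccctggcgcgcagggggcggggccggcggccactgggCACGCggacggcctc
Nr1d1: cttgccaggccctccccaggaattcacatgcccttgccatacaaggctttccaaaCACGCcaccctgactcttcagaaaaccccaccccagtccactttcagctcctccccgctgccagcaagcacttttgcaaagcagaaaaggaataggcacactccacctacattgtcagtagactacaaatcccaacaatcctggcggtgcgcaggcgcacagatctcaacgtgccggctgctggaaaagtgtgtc
Tef: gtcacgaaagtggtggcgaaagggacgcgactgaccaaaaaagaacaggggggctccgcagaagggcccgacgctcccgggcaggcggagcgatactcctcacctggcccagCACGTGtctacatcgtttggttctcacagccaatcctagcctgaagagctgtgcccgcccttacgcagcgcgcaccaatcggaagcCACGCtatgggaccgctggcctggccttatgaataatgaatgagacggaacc

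The upstream stretch of Cyp1a1 held a GCGTG close to the start. That of Per3 held a pair of D-boxes and a GCGTG, that shown for Tef an E-box and a GCGTG, and that of Nr1d1 a GCGTG. The 250 bases before another RefSeq start of Tef (chr15:81802423-81802672) held an E-box and no GCGTG. Windows of 300 bases, 250 before and 50 after the start, were found for 27 of the 29 genes called below, 33 windows in all. On either strand GCGTG was in a window of 20 of these 27 genes (74.1%), of 53.5% of the 10911 tested genes with a window and of 35.2% of all 27025 genes with one. The 20 genes with a match included Ankrd23, Loxl4, Npas2, Ppard, Rfxank and Zbtb21, which fell, and the rest rose. Mafk had 6 matches in its window, and the windows of Cyfip2, Cyp1a2, Cyp2a5, Nfil3, Nqo1, Slc46a3 and Tns2 had none. CACGTG was found for 5 of the 27 genes (18.5%, against 11.4% of tested genes), namely Bhlhe41, Jade1, Mafk, Tef and Zbtb21. TTATGNAA was found for Cyp2a5 and Per3 (7.41%, against 2.69%). AGGTCA, the core bound by REV-ERB receptors, was found for 6 (22.2%, against 15.5%). The median GC content was 63.7% in the windows of called genes and 60% in those of tested genes, and its part in these shares was not tested. A match describes letters, not binding.

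Of 15121 genes tested with edgeR, 29 differed between 0.1 µg/kg and vehicle at an adjusted p below 0.05, which is 0.192% of the genes. Among them 22 were higher (0.145%) and 7 were lower (0.0463%). An unadjusted p below 0.05 was reached by 766 genes (5.07%), 365 of them higher (2.41%) and 401 lower (2.65%). In all 29 called genes the 3 livers of one group lay wholly above the 3 of the other, which held for 2407 genes (15.9%) over the whole table. The called genes were picked by p-values from these same livers, so their separation is no added evidence. Of the 29, 23 changed at least 2-fold, 11 of these at least 4-fold, and 6 changed by less than 2-fold. Of the called genes, 11 belong to the AhR target battery (3) or to the clock lists (8), and 4 more stand on other pathway lists. The remaining 14, 11 higher and 3 lower, are on none of the 26 pathway lists. Over all tested genes the median log2 fold change was -0.01. Leaving out each of the 6 livers in turn gave 20 to 29 calls, and 18 of the 29 genes were called in every one of these fits. Other fits called more genes: DESeq2 called 58, the 6 libraries alone gave 77 and the 12 libraries of the 4 lowest groups 44.

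**Figure D1:**
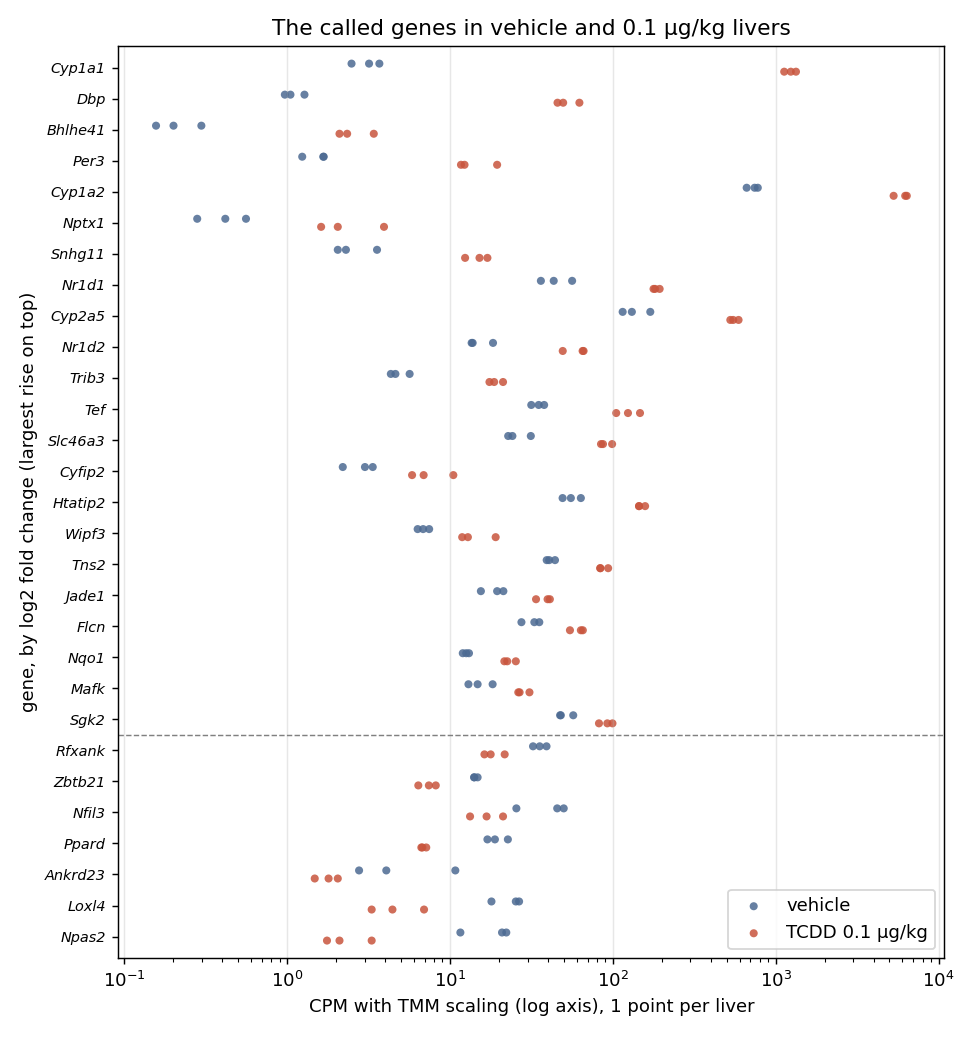
CPM with TMM scaling (log axis) of the 29 called genes, 1 point per liver, with vehicle in blue and 0.1 µg/kg in red; genes are ordered by log2 fold change and the dashed line parts the 22 that rose from the 7 that fell. The colours do not overlap in any gene, and the Cyp1a1 points move from under 4 CPM to over 1000.

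Cyp1a1 and Cyp1a2, the hepatic monooxygenases used as standard readouts of AhR activity, gave the smallest p-values of the comparison. Cyp1a1 (chr9:57687928-57703824) was at 3.69, 3.19 and 2.49 CPM in the vehicle livers and at 1333, 1129 and 1239 CPM at 0.1 µg/kg. Every treated liver stood far above every control. The log2 fold change was 8.62 ± 0.31 (SE), a 394-fold rise (edgeR, adjusted p = 1.36e-16).

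Cyp1a2 (chr9:57676937-57683703), which is highly expressed in hepatocytes without inducers, was at 777, 664 and 743 CPM in vehicle and at 6245, 5301 and 6386 CPM at 0.1 µg/kg. The groups were far apart against a narrow spread within each, and the rise was 8.21-fold (log2 fold change 3.04 ± 0.23, edgeR adjusted p = 6.61e-09). Nqo1, a quinone reductase that both AhR and NRF2 induce, was at 12, 13.1 and 12.6 CPM in vehicle and at 22.5, 25.4 and 21.6 CPM at 0.1 µg/kg. All 3 treated livers were higher, by 1.84-fold on average (log2 fold change 0.88 ± 0.19, edgeR adjusted p = 0.0427). That call was lost on leaving out any of the 6 livers (edgeR adjusted p 0.0995 to 0.253) and without the shallow library at 0.3 µg/kg (0.0546).

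The other 8 of the 11 battery genes did not pass the test, and the median log2 fold change of the battery was 0.57. Ahrr, the AhR repressor and a direct target, was at 0.224, 0.105 and 0.12 CPM in vehicle and at 0.134, 0.175 and 0.108 CPM at 0.1 µg/kg. These livers overlapped, and the log2 fold change was -0.20 ± 0.61. Cyp1b1, a related monooxygenase that oxidizes estrogens, was at 0.821, 0.784 and 0.682 CPM against 1.03, 1.52 and 0.431 CPM. Its groups overlapped too, with the third of the treated livers below every control (log2 fold change 0.31 ± 0.36). Tiparp, an ADP-ribosyltransferase that limits AhR signalling, was at 4.29, 5.8 and 5.86 CPM against 6.58, 6.9 and 6.94 CPM. Its treated livers were all higher, but by only 0.36 ± 0.28 on the log2 scale, with an unadjusted p of 0.216.

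Ugt1a6a, a glucuronidating enzyme, was at 28.1 to 36.2 CPM in vehicle and 42.3 to 51.9 CPM at 0.1 µg/kg, without overlap (log2 fold change 0.57 ± 0.21, unadjusted p = 0.0126, edgeR adjusted p = 0.727). Its neighbour Ugt1a6b was lower at 0.1 µg/kg, 19.4 to 19.8 against 22.2 to 26.4 CPM, with a log2 fold change of -0.32 ± 0.21. These genes share 50.3% and 60.6% of their exonic bases with genes of the same strand, so their counts are uncertain. Nfe2l2, which encodes the antioxidant factor NRF2, was at 57.8 to 77.9 against 89.3 to 94.9 CPM (log2 fold change 0.41 ± 0.16, edgeR adjusted p = 0.774). Gsta1 and Aldh3a1 were below 1 CPM in all 6 livers. Of 9 tested components of the receptor machinery none had an unadjusted p below 0.05. Of all genes 5.07% did, so so short a list says little. Ahr itself had a log2 fold change of -0.30 and Arnt one of -0.12.

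**Figure D2:**
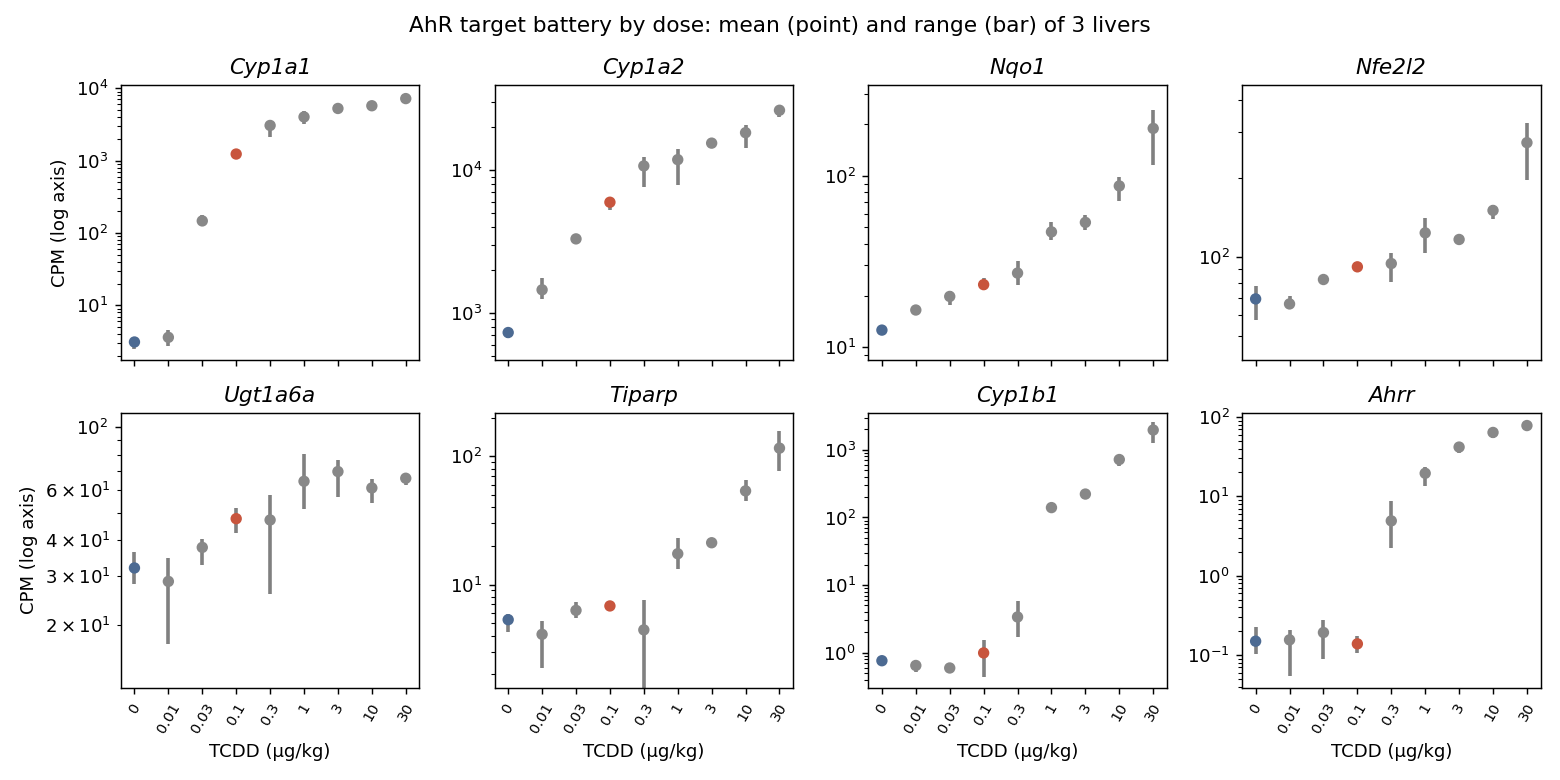
CPM (log axis) of 8 of the 11 AhR battery genes against TCDD dose, with the point at the mean and the bar over the range of 3 livers (blue vehicle, red 0.1 µg/kg, grey other doses; a bar that runs off the lower edge reaches a library listed at 0). Cyp1a1 and Cyp1a2 are already high at 0.1 µg/kg, while Ahrr and Cyp1b1 lie near their vehicle levels there and are higher from 0.3 µg/kg, and Tiparp from 1 µg/kg. The 0.3 µg/kg group includes the shallow library of 434011 counts, in which low genes rest on few reads.

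The battery genes that rose at 0.1 µg/kg stood higher still at 30 µg/kg. All doses share the vehicle livers, so the values are given side by side. Mean Cyp1a1 was 3.12 CPM in vehicle, 3.62 at 0.01, 147 at 0.03, 1234 at 0.1, 3064 at 0.3 and 7201 CPM at 30 µg/kg. Mean Cyp1a2 was 728, 1452, 3306, 5977, 10746 and 26408 CPM in the same groups. Ahrr, in contrast, had means of 0.15 CPM in vehicle, 0.139 at 0.1, 4.91 at 0.3 and 77.8 CPM at 30 µg/kg. Cyp1b1 had means of 0.762, 0.994, 3.38 and 1964 CPM in those 4 groups. The 0.3 µg/kg means include the library of 434011 counts, in which low genes rest on few reads. At 0.1 µg/kg the induction of Cyp1a1 was therefore measured without a detectable change of Ahrr or Cyp1b1, whose low counts limit what could be seen.

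The called genes included 8 of the clock. Of the 12 genes in the list of Period, REV-ERB, PAR bZIP and related E-box targets, 6 rose and none fell, with a median log2 fold change of 1.91. Of the 7 genes in the list of clock activators and genes peaking with them, 2 fell and none rose, with a median of -1.13. Both medians stand beside -0.01 for all genes, of which 0.145% were called higher and 0.0463% lower. The lists were drawn up with earlier results of these libraries known, so their direction is no independent evidence.

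Dbp (chr7:45705088-45710203), a PAR bZIP activator of liver enzyme genes and among the most strongly rhythmic liver transcripts, was at 0.97, 1.05 and 1.28 CPM in vehicle and at 49.6, 45.8 and 62.4 CPM at 0.1 µg/kg. Every treated liver was far above every control, and the rise was 47.6-fold (log2 fold change 5.57 ± 0.51, edgeR adjusted p = 2.17e-06). Another gene lies opposite 18% of its exonic sequence. Tef, another PAR bZIP gene, was at 35.1, 37.9 and 31.6 CPM against 124, 105 and 147 CPM. It rose 3.59-fold without overlap (edgeR adjusted p = 0.00203). Hlf, the remaining member of that family, was at 43.2 to 45.2 CPM against 47.5 to 59.2 CPM and did not pass (log2 fold change 0.25 ± 0.20).

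Per3 (chr4:151003652-151044665), a Period gene with a supporting role in the feedback loop, was at 1.68, 1.67 and 1.24 CPM in vehicle and at 11.7, 12.3 and 19.5 CPM at 0.1 µg/kg. The third treated liver was the highest, and the rise was 9.51-fold (log2 fold change 3.25 ± 0.45, edgeR adjusted p = 0.000532). Its relatives Per1 and Per2, the principal repressors of the loop, were not called. Per2 was at 1.98, 3.56 and 2.25 CPM against 5.1, 6.14 and 6.25 CPM (log2 fold change 1.19 ± 0.46, edgeR adjusted p = 0.798). Per1 was at 4.66, 12 and 4.17 CPM against 6.31, 10.7 and 25.5 CPM. Its groups overlapped, with 1 high liver in each.

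The REV-ERB genes encode heme-binding receptors that repress transcription. Nr1d1 (chr11:98767932-98775333) was at 36.2, 56.3 and 43.4 CPM in vehicle and at 194, 182 and 178 CPM at 0.1 µg/kg, a 4.08-fold rise (log2 fold change 2.03 ± 0.24, edgeR adjusted p = 2.06e-05). Nr1d2 was at 13.6, 18.4 and 13.8 CPM against 65.3, 49.3 and 66.2 CPM, a 3.96-fold rise (edgeR adjusted p = 4.08e-05). Both had treated livers well clear of the controls. Bhlhe41 (DEC2), a repressor that competes at E-boxes, was at 0.298, 0.157 and 0.201 CPM against 2.1, 2.34 and 3.41 CPM. It rose 11.5-fold from a very low level (edgeR adjusted p = 4.57e-05), and 19% of its exonic bases lie opposite another gene. Its relative Bhlhe40 (DEC1) was at 35.7 to 40.5 CPM against 84.3 to 106 CPM (log2 fold change 1.30 ± 0.31, edgeR adjusted p = 0.115). Cry2, a Cryptochrome repressor, was at 20.4 to 27 CPM against 40.9 to 48.4 CPM (log2 fold change 0.89 ± 0.20, edgeR adjusted p = 0.0696). Neither passed in the fit of all libraries although their groups were apart.

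Of the activators, Npas2 (chr1:39193731-39363236), the CLOCK relative that pairs with BMAL1, was at 22.2, 11.6 and 20.9 CPM in vehicle and at 3.31, 2.1 and 1.76 CPM at 0.1 µg/kg. All treated livers were lower, and the fall was 7.63-fold (log2 fold change -2.93 ± 0.50, edgeR adjusted p = 0.00427). Without the third 0.1 µg/kg liver the edgeR adjusted p was 0.0766. Nfil3, the D-box repressor, was at 45.6, 25.6 and 50 CPM against 21.2, 16.8 and 13.3 CPM. The second control came close to the first treated liver, and the fall was 2.37-fold (edgeR adjusted p = 0.0368). Its call was lost without the second (0.192) or the third (0.33) 0.1 µg/kg liver and without the first (0.158) or the third (0.244) vehicle liver, and also in fits of 6 (0.189) and 12 (0.0535) libraries.

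Arntl itself was at 33.9, 28.6 and 34.2 CPM in vehicle and at 18.5, 12.3 and 10.9 CPM at 0.1 µg/kg. The groups did not overlap, but the gene was not called (log2 fold change -1.21 ± 0.46, edgeR adjusted p = 0.77). Cry1 was at 13.4 to 15.5 CPM against 5.89 to 7.3 CPM (log2 fold change -1.13 ± 0.28, edgeR adjusted p = 0.131). Clock and Rora had log2 fold changes of -0.31 ± 0.31 and 0.15 ± 0.24.

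**Figure D3:**
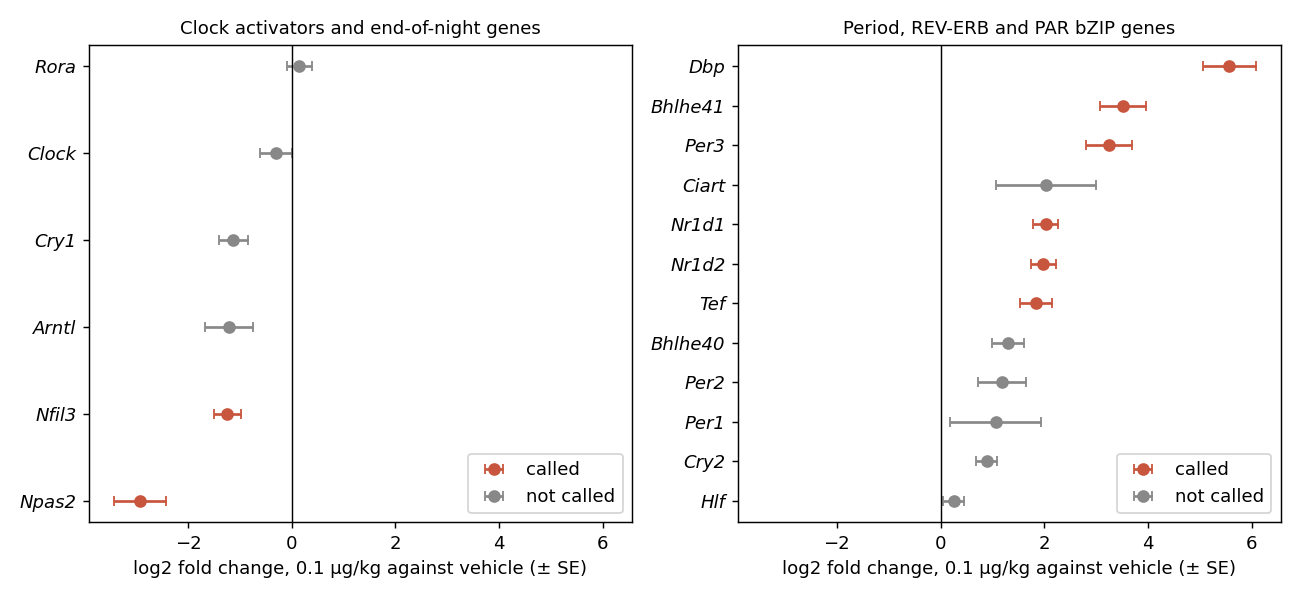
Log2 fold change between 0.1 µg/kg and vehicle (bars, ± 1 SE) for genes of both clock lists, with called genes in red and uncalled genes in grey. All 12 genes of the right panel lie above 0 and 5 of the 6 genes drawn in the left panel lie below it; 8 are called.

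Of 25 genes that the clock is known to drive in liver metabolism 1 was called, Cyp2a5, beside 0.192% of all genes. The log2 fold changes of the 25 ran from -1.29 to 2.21 with a median of 0.14. An unadjusted p below 0.05 was reached by 3 higher and 3 lower genes (2.41% and 2.65% of all genes). Cyp2a5 (chr7:26835305-26843548), the coumarin hydroxylase and a DBP target, was at 170, 115 and 131 CPM in vehicle and at 549, 527 and 592 CPM at 0.1 µg/kg. It rose 4.01-fold with no overlap (edgeR adjusted p = 0.00582). The call was lost without the second (0.0949) or the third (0.0746) vehicle liver, and a near-identical copy, Cyp2a4, makes its count uncertain. Cyp2a5 also stands on a list of 20 other drug-oxidizing enzymes. It was the only gene called there, and the median log2 fold change of that list was -0.01. Rgs16, a G-protein regulator, was at 10.6, 11.8 and 27.1 CPM against 67.8, 67.8 and 93.6 CPM (log2 fold change 2.21 ± 1.04, edgeR adjusted p = 0.977). Avpr1a, the vasopressin receptor of hepatocytes, was at 74.2 to 97.4 CPM against 44.3 to 50.2 CPM (log2 fold change -0.91 ± 0.28, edgeR adjusted p = 0.396). Of 10 tested heat shock and cold-inducible genes none had an unadjusted p below 0.05, which 5.07% of all genes had. The labels used here state no hour of collection, and its part in the clock results was not tested.

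On no pathway list were 11 of the genes that rose. Nptx1, a secreted pentraxin known from neurons, was at 0.56, 0.418 and 0.281 CPM in vehicle and at 3.94, 2.05 and 1.62 CPM at 0.1 µg/kg. It rose 5.91-fold from near absence (log2 fold change 2.56 ± 0.41, edgeR adjusted p = 0.00172). Snhg11, a long non-coding RNA that hosts a small nucleolar RNA, was at 2.05, 2.3 and 3.57 CPM against 17, 15.2 and 12.4 CPM. All treated livers were higher, by 5.6-fold on average (edgeR adjusted p = 0.000532). Slc46a3, a lysosomal membrane transporter, was at 31.4, 24.2 and 22.8 CPM against 99.1, 87.1 and 84.7 CPM, a 3.46-fold rise (edgeR adjusted p = 0.0018).

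Htatip2, an oxidoreductase-like protein studied as a tumour suppressor, was at 49.2, 55.3 and 63.7 CPM against 145, 158 and 145 CPM, a 2.66-fold rise (edgeR adjusted p = 0.00137). Flcn, the folliculin gene of amino acid sensing through mTORC1, was at 35.4, 27.5 and 33 CPM against 65.5, 54.6 and 63.7 CPM, a 1.92-fold rise (edgeR adjusted p = 0.000468). These groups were narrow and apart, which gave Flcn a small p for a modest fold. Tns2, a focal adhesion protein, rose 2.1-fold from 39.3 to 44.2 CPM to between 83.7 and 93.7 CPM (edgeR adjusted p = 0.001). Jade1, a scaffold of a histone acetyltransferase complex, rose 2.04-fold from 15.5 to 21.3 CPM to between 33.8 and 41.1 CPM (edgeR adjusted p = 0.0025). Each of these 4 genes and the 3 before them was called with any of the 6 livers left out.

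The other 4 were called less steadily. Cyfip2, a subunit of the actin-regulating WAVE complex, was at 3.36, 2.2 and 3.01 CPM against 6.9, 10.5 and 5.86 CPM, and rose 2.67-fold (edgeR adjusted p = 0.00582). The second liver stood lowest in vehicle and highest at 0.1 µg/kg, and the call was lost without the treated (0.11) or the control (0.0949) one of these and in the fit of 12 libraries (0.0689). Wipf3, another actin regulator, was at 6.34 to 7.46 CPM against 11.9 to 19.1 CPM, and rose 2.13-fold (edgeR adjusted p = 0.0174). It was not called without the third 0.1 µg/kg liver (0.33) or without the first (0.125), the second (0.117) or the third (0.0743) vehicle liver. Mafk, a small MAF protein that partners NRF2, rose 1.82-fold from between 13 and 18.3 CPM to between 26.3 and 30.8 CPM (edgeR adjusted p = 0.0129). It was not called without the first (0.15) or the third (0.0587) 0.1 µg/kg liver, without the first (0.0974) or the second (0.185) vehicle liver, or in the fit of 12 libraries (0.076). Sgk2, a kinase of the SGK family, was at 47.5, 57.2 and 48 CPM against 82.3, 99.6 and 92.6 CPM, and rose 1.8-fold (edgeR adjusted p = 0.0427). Leaving out any of the 6 livers ended its call (edgeR adjusted p 0.0728 to 0.255).

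Trib3, a pseudokinase induced through ATF4 in stress responses, was at 4.63, 4.34 and 5.66 CPM in vehicle and at 21.2, 17.5 and 18.7 CPM at 0.1 µg/kg. It rose 3.92-fold with both groups tight (log2 fold change 1.97 ± 0.30, edgeR adjusted p = 0.000924). It was the only one called of 14 genes of the endoplasmic reticulum and integrated stress list, beside 0.192% of all genes. The median log2 fold change of that list was -0.12. Among the uncalled were the chaperone Hspa5 (445 and 410 CPM on average, log2 fold change -0.12) and Atf4 itself (122 and 112 CPM, log2 fold change -0.12).

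Beside both clock genes, 5 genes fell. Loxl4 (chr19:42593982-42612813), a lysyl oxidase that cross-links collagen, was at 18, 25.4 and 26.6 CPM in vehicle and at 6.94, 4.44 and 3.31 CPM at 0.1 µg/kg. All treated livers were well below the controls, a 4.77-fold fall (log2 fold change -2.25 ± 0.28, edgeR adjusted p = 4.08e-05). No other of the 20 tested collagen and matrix genes was called, beside 0.192% of all genes, and their median log2 fold change was -0.40. Col1a1 averaged 11.5 and 6.69 CPM (log2 fold change -0.79, unadjusted p = 0.116) and Col3a1 38.7 and 26.7 CPM (log2 fold change -0.54, unadjusted p = 0.153). The summed level of the stellate cell and fibroblast markers was 304 to 398 CPM in vehicle and 290 to 318 CPM at 0.1 µg/kg. Abundant members such as Dcn dominate that sum. Only 1 of the 10 markers was higher, and their median log2 fold change was -0.37. Acta2 had the lowest, at -1.11 (edgeR unadjusted p = 0.0167). In whole liver fewer cells of a type and less RNA per cell cannot be told apart.

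Ppard (chr17:28232700-28301474), the nuclear receptor PPAR delta that controls fatty acid use, was at 17, 18.9 and 22.7 CPM in vehicle and at 7.16, 6.78 and 6.68 CPM at 0.1 µg/kg. The treated livers were nearly identical and the fall was 2.84-fold (edgeR adjusted p = 0.00153). It was the only called one of 15 nuclear receptors, beside 0.192% of all genes, and their median log2 fold change was 0.01. Ppara, the main hepatic relative, averaged 108 and 113 CPM (log2 fold change 0.07). Zbtb21, a zinc finger repressor, was at 14.8, 14.1 and 14.1 CPM against 7.43, 8.19 and 6.4 CPM and fell 1.96-fold (edgeR adjusted p = 0.00582, but 0.104 without the third 0.1 µg/kg liver).

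Rfxank, a subunit of the factor that activates MHC class II genes, was at 32.4 to 39.2 CPM against 16.3 to 21.7 CPM and fell 1.93-fold (edgeR adjusted p = 0.00689). Its call was lost without the first (0.0806) or the third (0.134) 0.1 µg/kg liver or the first vehicle liver (0.0606), and 33.8% of its exonic bases lie opposite another gene. Ankrd23, an ankyrin repeat protein known from muscle, was at 4.07, 2.77 and 10.8 CPM against 1.48, 2.05 and 1.8 CPM (3.33-fold lower, edgeR adjusted p = 0.023). Without the third vehicle liver, the highest, its edgeR adjusted p was 0.476, and it was also lost without the first (0.206), the second (0.0772) or the third (0.169) treated liver and in fits of 6 (0.354) and 12 (0.121) libraries. A neighbour on its own strand covers 78.2% of its exonic sequence. That same vehicle liver held 46.4 CPM of the muscle actin Acta1, against at most 0.0895 CPM in the other 5.

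Beyond the lists above, no gene passed the test in bile acid, fatty acid, cholesterol, glucose, one-carbon, heme, growth hormone, acute phase, chemokine or cell cycle lists. With 0.192% of all genes called, lists of this size would seldom hold a call, so its absence says little about them. NRF2 and glutathione genes, 17 in number, had a median log2 fold change of 0.19 and no call. Gstp1, a glutathione transferase, was at 53.3, 61.7 and 88.1 CPM against 109, 145 and 116 CPM (log2 fold change 0.86 ± 0.32, edgeR adjusted p = 0.727). Among 14 lipid uptake and droplet genes, Cd36, a fatty acid receptor, was at 38.5, 60.8 and 78.5 CPM in vehicle and at 123, 121 and 121 CPM at 0.1 µg/kg. The treated livers were higher and almost equal, yet the gene did not pass (log2 fold change 1.03 ± 0.25, edgeR adjusted p = 0.112). Ppp1r3b, a glycogen-targeting subunit, was at 167, 441 and 202 CPM against 95.5, 102 and 118 CPM (log2 fold change -1.36 ± 0.32, edgeR adjusted p = 0.0924). Cdkn1a, a cell cycle inhibitor, was at 16.5, 33.8 and 37.6 CPM against 4.7, 6.84 and 7.22 CPM (log2 fold change -2.23 ± 0.68, edgeR adjusted p = 0.458). Cyp7a1, the rate-limiting enzyme of bile acid synthesis, averaged 132 and 53.9 CPM (log2 fold change -1.29, unadjusted p = 0.0677). Non-overlap alone was common, at 15.9% of all genes.

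None of the 13 lists of cell type markers had a called gene. Some lists were mostly below the low-count filter: 2 of 7 muscle, 1 of 6 adipocyte and 3 of 8 pancreatic acinar markers were tested. Tested muscle markers summed to 1.72 to 48.2 CPM in vehicle and 0.97 to 2.22 CPM at 0.1 µg/kg. The untested muscle markers Ckm and Tnnt3 had pooled counts of 371 and 411 in vehicle and 0 and 2 at 0.1 µg/kg. Over all tested genes only 0.192% were called, so short lists without a call do not show an unchanged cell make-up. Summed Kupffer cell markers were at 323 to 494 CPM in vehicle and 376 to 435 CPM at 0.1 µg/kg, and sinusoidal endothelial markers at 318 to 426 and 298 to 419 CPM. Recruited macrophage markers were at 70.8 to 103 and 64.2 to 81.9 CPM, with a median log2 fold change of -0.25. Cholangiocyte markers had a median log2 fold change of -0.34. Erythroid markers, which reflect blood in the tissue, were at 77.7 to 247 and 60.6 to 124 CPM with a median log2 fold change of -0.68. Their part in the called genes was not tested.

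The genes just outside the threshold were Maff, Csad, Csrnp1, Tnfaip8l3, Fam13a, Slc6a19, Slc34a2, Gm10804, Cry2 and N4bp2l1, with edgeR adjusted p-values from 0.0636 to 0.0865, while Nqo1 and Sgk2 lay just inside at 0.0427. Maff, a small MAF protein like Mafk, was at 2.42, 1.15 and 3.25 CPM against 6.4, 7.6 and 6.43 CPM (log2 fold change 1.55 ± 0.34). Csad, which makes taurine, was at 330, 212 and 251 CPM against 83.2, 92.8 and 81.1 CPM (log2 fold change -1.62 ± 0.35, edgeR adjusted p = 0.067). Csad was called by DESeq2 (0.000917) and in the fits of 6 (0.000917) and 12 (0.00125) libraries. Another 7 genes were likewise called by those 3 alternatives and not in the fit of all libraries, and all 7 were higher: Bhlhe40, Cry2, Fam13a, N4bp2l1, Stbd1, Ces2c and 2900026A02Rik. This set was picked out after its values were seen. Ces2c, a carboxylesterase, averaged 7.72 ± 1.01 CPM in vehicle and 24.7 ± 5.75 CPM at 0.1 µg/kg (SD, n = 3 each, log2 fold change 1.68).

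The 0.1 µg/kg livers were also compared with those of the next lower doses. These comparisons reuse the 0.1 µg/kg libraries. Against 0.03 µg/kg 4 genes were called (0.0265% of 15121), all higher at 0.1 µg/kg: Cyp1a1, Cyfip2, Flcn and Nlrc5. Cyp1a1 was at 131, 180 and 129 CPM at 0.03 µg/kg, so it rose further by 3.07 on the log2 scale (edgeR adjusted p = 1.12e-08). Cyfip2 was at 1.76, 3.12 and 2.27 CPM there and Flcn at 32.4, 40.6 and 35.3 CPM, both close to their vehicle levels. Their edgeR adjusted p-values against 0.03 µg/kg were 0.00628 and 0.0321. At 0.01 µg/kg, however, Flcn was at 40.7, 53.3 and 48.8 CPM, above all vehicle livers, and 0.1 against 0.01 µg/kg was not called (log2 fold change 0.36, edgeR adjusted p = 0.371). Nlrc5, a regulator of MHC class I genes, was at 21.6, 18.9 and 24.6 CPM at 0.03 µg/kg and 44.8, 38.7 and 39.1 CPM at 0.1 µg/kg (edgeR adjusted p = 0.0457). Its vehicle livers, at 39.3, 25.8 and 31.1 CPM, overlapped the 0.1 µg/kg livers. Leaving out a liver gave 1 to 3 calls, with 1 without the first or the third liver at 0.03 µg/kg or the second at 0.1 µg/kg, and 2 without the first or the third at 0.1 µg/kg.

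For the remaining called genes the step from 0.03 µg/kg was not resolved. Dbp was at 14.8, 18.9 and 6 CPM at 0.03 µg/kg, between both other groups (log2 fold change 2.00 to 0.1 µg/kg, edgeR adjusted p = 0.18). Nr1d1 was at 179, 128 and 149 CPM and Loxl4 at 5.38, 4.2 and 7.91 CPM at 0.03 µg/kg, both overlapping 0.1 µg/kg. Cyp1a2, at 3321, 3514 and 3083 CPM, did not overlap it but was not called (log2 fold change 0.85, edgeR adjusted p = 0.576).

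Against 0.01 µg/kg 70 genes were called (0.463%), 43 higher (0.284%) and 27 lower (0.179%) at 0.1 µg/kg. Cyp1a1 was at 4.59, 2.73 and 3.54 CPM and Dbp at 1.21, 1.72 and 1.71 CPM at 0.01 µg/kg, near vehicle levels, and both were called against it (edgeR adjusted p = 1.99e-16 and 8.46e-06). Cyp1a2 was at 1746, 1366 and 1245 CPM at 0.01 µg/kg and was also called (8.46e-06). Among the 70 were genes not called between 0.1 µg/kg and vehicle. Sdsl, a serine dehydratase relative, was at 18.6, 40.1 and 28.7 CPM at 0.01 µg/kg, at 11, 11 and 10.7 CPM at 0.1 µg/kg and at 14, 13 and 15.5 CPM in vehicle. Them7 was at 13.4, 8.82 and 11.7 CPM at 0.01 µg/kg and at 22.1, 25.4 and 26.9 CPM at 0.1 µg/kg, with 20.5, 16.1 and 15.2 CPM in vehicle. Neither gene was called between 0.01 µg/kg and vehicle (edgeR adjusted p = 0.183 and 0.638). The 0.01 µg/kg livers also varied more among themselves, with a median SD over genes of 0.266 on the log2(CPM + 0.5) scale against 0.151 at 0.1 µg/kg and 0.160 in vehicle. The count of 70 moved with single livers: it was 138 without the first and 18 without the second 0.01 µg/kg liver, and 34, 25 and 23 without the first, the second and the third 0.1 µg/kg livers.

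**Figure D4:**
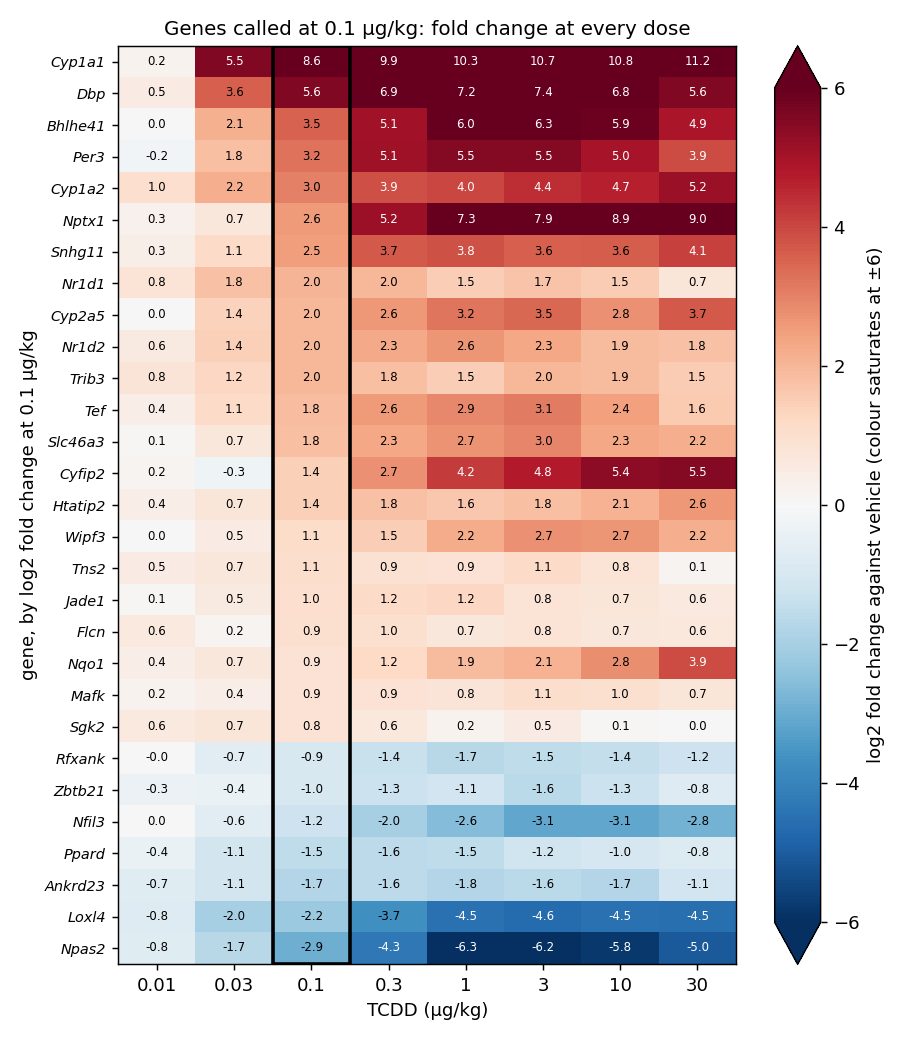
Log2 fold change against vehicle at each of the 8 doses for the 29 genes called at 0.1 µg/kg (outlined column), in order of their change there, with each value printed in its cell and colour saturating at ±6. Nptx1 and Cyfip2 go on rising to 30 µg/kg, whereas Sgk2 and Tns2 are back near 0 there; all columns share the same 3 vehicle livers.

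Over the whole dose range the called genes followed different courses, given here as levels beside the shared vehicle livers. Nptx1 averaged 0.42 CPM in vehicle, 2.53 at 0.1, 65.5 at 1 and 214 CPM at 30 µg/kg, and Cyfip2 averaged 2.85, 7.76, 52.4 and 131 CPM. For these genes 0.1 µg/kg lay at the foot of a large increase. Dbp averaged 1.1 CPM in vehicle, 52.6 at 0.1, 187 at 3 and 52 CPM at 30 µg/kg, and Per3 averaged 1.53, 14.5, 69.2 and 22.8 CPM, with their highest levels at middle doses. Nr1d1 averaged 45.3, 185, 147 and 74 CPM in those groups. Its highest mean, at 0.1 µg/kg (178 to 194 CPM), was not set apart from 182 CPM at 0.3 µg/kg (157 to 218 CPM). Npas2 averaged 18.2 CPM in vehicle, 2.39 at 0.1, 0.209 at 1 and 0.574 CPM at 30 µg/kg. Sgk2 averaged 50.9, 91.5, 59.2 and 52.3 CPM and Tns2 41.4, 87.1, 76.6 and 46 CPM in the same groups, with levels at 30 µg/kg close to vehicle. In all, 2 tested genes had their 3 livers at 0.1 µg/kg above all 24 others and 1 had them below, which is a description.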

How the data were processed

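RNA of 27 livers was sequenced from Illumina TruSeq libraries, per the labels' protocols. The authors deposited 1 whole-number count for each gene and library, made with FastQC 0.11.2, cutadapt 1.4.1, TopHat 1.4.1, SAMtools 0.1.19 and HTSeq 0.6.1 on GRCm38, per the submitters' processing notes. How strand was counted, and with which annotation, is not given in the sources used here. Summary lines (reads on no gene, on several genes or not aligned uniquely) entered neither library sizes nor tests. In the 6 libraries compared, 8.56% to 11.2% of the reads on 1, several or no genes lay on no gene. Reads not aligned uniquely are left out of that share. Of 41388 identifiers, 40254 matched a symbol in a list of gene names. As many had coordinates in GENCODE M21, which also gave exon overlaps.

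The test was edgeR 4.0.16 in R 4.3.3: filterByExpr (minimum count 10), TMM scaling and a robust quasi-likelihood one-way model over all 27 libraries. P-values were adjusted by Benjamini-Hochberg over 15121 genes and called below 0.05. The standard error is the log2 fold change divided by the square root of F. The script was tested on simulated data. No pair of replicates in the 4 lowest groups agreed within sampling noise.

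Named genes were every gene called against vehicle, all AhR battery and clock list members, members of other lists with an unadjusted p below 0.05 or else the 2 most abundant, the 10 nearest uncalled genes and up to 10 called against each lower dose; more of those were tested than are printed, and other genes named were chosen after their values were seen. A few members of these lists are left out of the text. The comparison and the lists were chosen with earlier results of these data known. The results were recomputed with DESeq2 1.42.0, with RLE or upper-quartile scaling, with other filters, thresholds, library sets and dispersion, with a replicate block and without each liver. Motifs were searched in RefSeq promoter windows of GRCm38.p6.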

Additional observations from a re-analysis of the deposited data

How the results depend on the processing

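Against vehicle 29 genes were called; DESeq2 called 58, all 29 among them, the 6 libraries alone gave 77 (27 of the 29) and the 12 libraries of the 4 lowest groups 44 (25 of the 29). Leaving out each liver gave 20 to 29. Against 0.03 µg/kg 4 were called; the count was 16 with the 6 libraries alone, 13 with DESeq2, 1 with 12 libraries, 2 without the shallow library, 2 without the 1 µg/kg libraries, 2 at an adjusted p below 0.01, and 1 to 3 on leaving out each liver: 1 without the first or the third 0.03 or the second 0.1 µg/kg liver and 2 without the first or the third 0.1 µg/kg liver. Against 0.01 µg/kg 70 were called; the count was 28 with the 6 libraries alone, 141 with DESeq2, 23 at an adjusted p below 0.01, 126 below 0.1, and 18 to 138 on leaving out each liver. The fits of 6 and 12 libraries estimate the spread from fewer samples and test 13909 and 14321 genes; the cause of the other changes was not tested. RLE and upper-quartile factors each gave 29 calls against vehicle, 22 of them higher, and moved the median of all genes by less than 0.1 on the log2 scale.

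Same-numbered livers of the 0.1 µg/kg and vehicle groups did not deviate together (correlations -0.112, -0.14 and 0.088), so the numbers were not taken as a pairing. With the number as a replicate block 32 genes were called against vehicle (28 of the 29, without Sgk2 at an adjusted p of 0.0557), 4 against 0.03 and 69 against 0.01 µg/kg.

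No called gene changed sign: 448 alternative results kept their call and 45 lost it. For uncalled named genes 51 gained one, 1453 stayed as they were and 21 moved by more than 1 SE; among these, Acta1 went from -8.76 to 0.35 on the log2 scale without the third vehicle liver. Genes under about 1 CPM, such as Ahrr, Gsta1 and Aldh3a1, rest on few counts.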
